A study of Homo sapiens with 18 samples.

Results

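TXNIP, ARRDC4, MLXIP, MLXIPL and MLX were taken by symbol from a table of 47021 genes measured in poly(A) RNA of DLD1 cells, a human line established from a colorectal adenocarcinoma. They make up the glucose-sensing module around MondoA, the protein encoded by MLXIP. TXNIP was chosen because its level was low with both ZNF692 guides in these same libraries. ARRDC4, its paralogue, and the 3 regulator genes were set beside it. Differences of the 5 genes from the control guide are therefore given as descriptions without a test, and the test used is that of sgZ3 against sgZ1. All 5 genes passed the filter on low counts, among 14732 tested genes.

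The cells carried ZNF692 guide 3 (sgZ3) or guide 1 (sgZ1), both labelled ZNF692 KO, or a control guide (sgC) labelled WT, with 3 poly(A) libraries for each guide. All 3 groups were made with lentivirus, were selected with 10 µg/ml puromycin from 48 h after infection and grew in DMEM with 5% serum. Whether a line is a clone or a pool is not in the labels. Nor do they say that replicates are separate cultures, and the spread behind each p-value may thus be technical. The glucose level of the medium is not given either. ZNF692 mRNA was at 6.29 to 8.07 CPM (counts scaled to a common library size) in sgZ3, 9.63 to 11.5 CPM in sgZ1 and 6.18 to 7.01 CPM in sgC. It was thus not lower in either group labelled KO, and since small CRISPR deletions need not lower mRNA, this does not check the labels.

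MondoA and its relative ChREBP, encoded by MLXIPL, are basic helix-loop-helix zipper transcription factors that each bind DNA as a dimer with MLX. When glucose 6-phosphate accumulates they move onto carbohydrate response elements in the nucleus. TXNIP and ARRDC4 are among the best known targets of MondoA, and their proteins, both alpha-arrestins, lower glucose uptake, so that the module forms a feedback loop. TXNIP also binds and inhibits thioredoxin, and ChREBP is best known from liver, fat and gut, where it drives glycolytic and fat synthesis genes.

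The promoters of TXNIP and ARRDC4 are shown because these are the target genes of the module. They are also the members that were lowest in sgZ3, intermediate in sgZ1 and highest in sgC. All 5 genes were matched in the RefSeq promoter table (GRCh38.p14). The TXNIP stretch lies at chr1:145996620-145996829 on the minus strand and the ARRDC4 stretch at chr15:97960453-97960662 on the plus strand. Each starts 250 bases before the RefSeq start site and holds 210 bases. Capitals mark CCAAT boxes on either strand (CCAAT or ATTGG) in both promoters, a paired E-box in TXNIP and the perfect E-box CACGTG in ARRDC4.
TXNIP: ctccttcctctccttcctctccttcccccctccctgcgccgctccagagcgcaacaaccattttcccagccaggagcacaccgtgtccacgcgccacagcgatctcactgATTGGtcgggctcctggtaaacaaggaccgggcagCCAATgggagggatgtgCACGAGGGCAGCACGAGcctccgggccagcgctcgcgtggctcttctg
ARRDC4: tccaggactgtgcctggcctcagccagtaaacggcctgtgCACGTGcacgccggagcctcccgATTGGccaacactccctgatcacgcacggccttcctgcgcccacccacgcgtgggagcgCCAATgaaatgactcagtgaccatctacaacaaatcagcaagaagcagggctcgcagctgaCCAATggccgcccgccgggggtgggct

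The paired E-box was searched as CACGNG or its reverse CNCGTG, 5 bases, and again CACGNG or CNCGTG, and it may overlap other motifs. It was searched apart from the carbohydrate response element consensus and was chosen after the TXNIP sequence had been read. In TXNIP it runs from base -88 to -72 before the start site, next to a CCAAT box at -105 to -101, with another at -140 to -136. Of 35116 RefSeq promoter windows of 250 bases, 0.0655% held a paired E-box. No paired E-box was found in the windows of ARRDC4, MLXIP, MLXIPL or MLX, nor before another TXNIP start site inside the gene. The consensus of the carbohydrate response element, searched only as CAYGNG, 5 bases and CNCRTG, matched none of the 6 windows and 0.0797% of all windows. Here Y is C or T and R is A or G. A window without this exact string, that of TXNIP included, may still hold such an element. ARRDC4 held CACGTG at -210 to -205 and 3 CCAAT boxes. MLX held CACGTG at -50 to -45 and a CCAAT box at -66 to -62, MLXIP a CCAAT box at -76 to -72, and the MLXIPL window none of the searched motifs. CACGTG was found in 6.34% and a CCAAT box on either strand in 32% of all windows. A match describes the letters only and was not tested as a binding site.

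**Figure D1:**
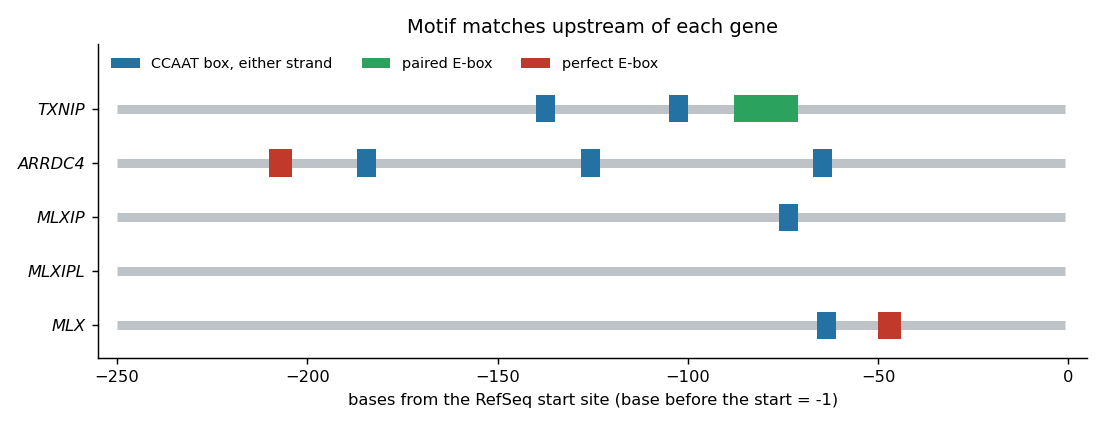
Position of each motif match, in bases from the RefSeq start site, in the 250 bases before the first start site of the 5 genes, where grey bars are the searched windows and coloured blocks the matches. TXNIP is the gene with the paired E-box, ARRDC4 has 3 CCAAT boxes and MLXIPL has no match.

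Library totals ran from 16044224 to 24535642 counts. Of 12 epithelial markers 11 were above a mean of 1 CPM, with CDX1 below it, and their summed level was 11715 to 12900 CPM in sgZ3, 9347 to 10294 CPM in sgZ1 and 9709 to 10874 CPM in sgC. Of 14 mesenchymal markers 7 were above a mean of 1 CPM. Their sum was 141 CPM in sgZ3 replicate 3 and 137 CPM in sgZ1 replicate 2, and 11.6 to 19.8 CPM in the other 7 libraries, so these libraries stand apart and results are also given without them. Of 9 leukocyte markers only CD14 passed 1 CPM, CD3D, MS4A1 and CD68 had 0 counts, and the sum was 4.12 to 5.83 CPM over all libraries. The part of these transcripts in the results was not tested.

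TXNIP was lowest with sgZ3, intermediate with sgZ1 and highest with the control guide, and the 3 groups did not overlap. The gene lies on chromosome 1 from 145992435 to 145996600 on the minus strand (GRCh38, protein coding). It was at 150, 160 and 143 CPM in sgZ3, at 301, 261 and 270 CPM in sgZ1 and at 711, 589 and 569 CPM in sgC (replicates 1, 2 and 3). The mean level was 24.3% of the sgC mean in sgZ3 and 44.5% of it in sgZ1. In bulk RNA, fewer cells with a transcript and less of it in each cell cannot be told apart. As a description, the log2 fold change was -2.04 (SE 0.11) for sgZ3 and -1.17 (SE 0.10) for sgZ1. Of 14732 tested genes, 26 had a lower value for sgZ3 and 90 had a lower value for sgZ1. Every sgZ3 and sgZ1 library lay below every sgC library in 11.5% of tested genes. Every sgZ3 library lay below every sgZ1 library in 18.3%. Genes with both separations together were not counted.

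Set beside all transcripts, TXNIP stood lower in the order of abundance with either ZNF692 guide. Per kilobase of exon it averaged 41.7 ± 2.32 CPM per kb in sgZ3, 76.5 ± 5.68 in sgZ1 and 172 ± 21.2 in sgC (SD, n = 3 each). Among 44831 genes with an annotated length, its place by that measure was 1489 to 1578 in sgZ3, 560 to 767 in sgZ1 and 147 to 220 in sgC. In the control cells it was thus one of the most abundant transcripts per length.

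ARRDC4 had the same order of groups at a lower level per length, with 4.07 ± 0.102 CPM per kb in sgZ3, 6.20 ± 0.965 in sgZ1 and 11.9 ± 1.28 in sgC (SD, n = 3 each). This alpha-arrestin gene is on chromosome 15 from 97960698 to 97973838 on the plus strand. Its level was 16.8, 16.1 and 16.8 CPM in sgZ3, 29.5, 21.8 and 24.4 CPM in sgZ1 and 54.2, 44.7 and 45.9 CPM in sgC, with no overlap between groups. The mean was 34.3% of the sgC mean in sgZ3 and 52.3% in sgZ1, and the log2 fold change was -1.54 (SE 0.13) for sgZ3 and -0.93 (SE 0.12) for sgZ1. TXNIP and ARRDC4 were the members with every sgZ3 and sgZ1 library below every sgC library, as 11.5% of tested genes were. In sgZ1 the lowest ARRDC4 and TXNIP values were both in replicate 2, which held mesenchymal transcripts.

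**Figure D2:**
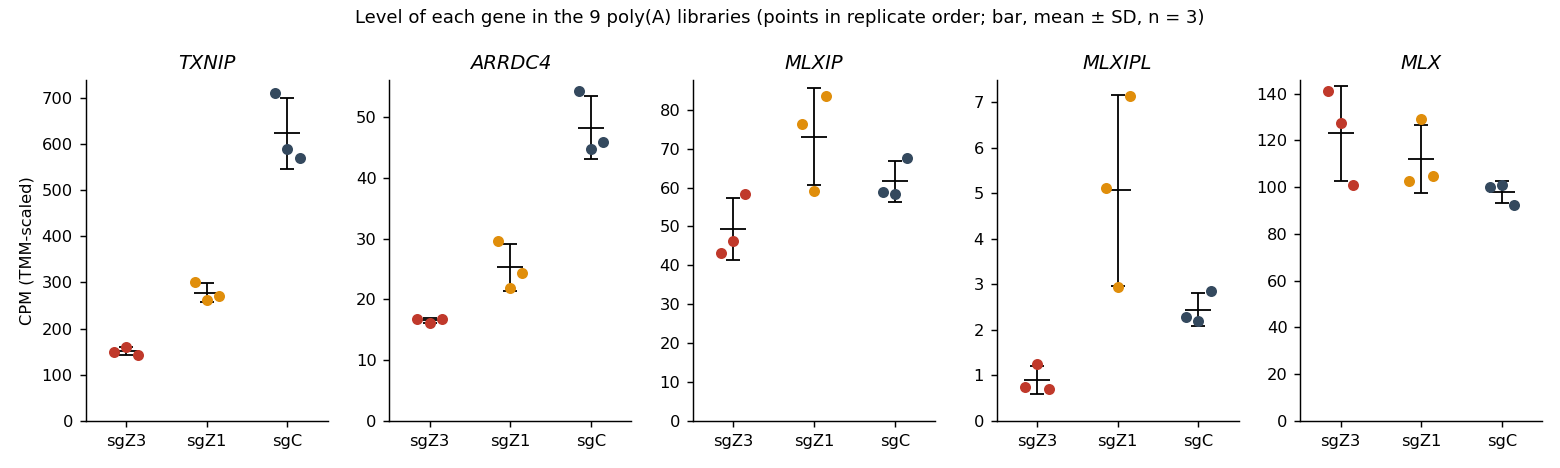
Level in CPM of the 5 genes in each poly(A) library, with groups sgZ3, sgZ1 and sgC on the horizontal axis, points for replicates 1 to 3 and bars for mean ± SD (n = 3). TXNIP and ARRDC4 step up without overlap across the 3 groups, MLXIPL lies lowest in sgZ3 and highest in sgZ1, and the groups of MLXIP and MLX overlap in part.

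The regulator genes were ordered differently from the targets. MLXIP, which encodes MondoA, is on chromosome 12 from 122078722 to 122147347 on the plus strand. It was at 43.1, 46.4 and 58.4 CPM in sgZ3, at 76.4, 59.2 and 83.5 CPM in sgZ1 and at 58.9, 58.3 and 67.7 CPM in sgC. Both sgZ3 and sgZ1 overlapped the sgC libraries, while every sgZ3 library was below every sgZ1 library. The log2 fold change was -0.32 (SE 0.15) for sgZ3 and 0.24 (SE 0.14) for sgZ1, of opposite sign. The sgZ3 library nearest to sgZ1 was replicate 3 and the sgZ1 library nearest to sgZ3 was replicate 2, the libraries with mesenchymal transcripts.

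MLXIPL, which encodes ChREBP, was a low transcript that lay below the control in sgZ3 and above it in sgZ1. It is on chromosome 7 from 73593194 to 73624543 on the minus strand. It had 11, 23 and 14 counts in sgZ3, 110, 72 and 145 counts in sgZ1 and 47, 41 and 67 counts in sgC. On the scaled level this was 0.744, 1.25 and 0.710 CPM in sgZ3, 5.12, 2.94 and 7.14 CPM in sgZ1 and 2.29, 2.19 and 2.85 CPM in sgC. Every sgZ3 library was below, and every sgZ1 library above, all sgC libraries. The log2 fold change was -1.43 (SE 0.36) for sgZ3 and 1.04 (SE 0.29) for sgZ1. Of all tested genes, 26.6% had every sgZ3 library below every sgC library and 23.4% had every sgZ1 library above every sgC library.

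MLX, the shared partner of both factors, had the smallest difference between the ZNF692 guides. It lies on chromosome 17 from 42567068 to 42573239 on the plus strand, and its exons share 770 bases with PSMC3IP on the other strand. Without strand, reads there cannot be told apart, and the level of PSMC3IP was 7.86 to 9.06 CPM in sgZ3, 8.24 to 9.12 CPM in sgZ1 and 4.52 to 5.71 CPM in sgC. MLX was at 141, 127 and 101 CPM in sgZ3, at 103, 129 and 105 CPM in sgZ1 and at 100, 101 and 92.3 CPM in sgC. All sgZ1 libraries were above all sgC libraries by a small margin, and sgZ3 overlapped both groups. The log2 fold change was 0.33 (SE 0.13) for sgZ3 and 0.20 (SE 0.13) for sgZ1.

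Per kilobase of exon MLX was the most abundant of the regulators. It averaged 28.9 ± 4.76 CPM per kb in sgZ3, 26.3 ± 3.45 in sgZ1 and 23.0 ± 1.13 in sgC (SD, n = 3 each). MLXIP averaged 3.55 ± 0.580 CPM per kb in sgZ3, 5.25 ± 0.898 in sgZ1 and 4.43 ± 0.380 in sgC. MLXIPL averaged 0.187 ± 0.0624 CPM per kb in sgZ3, 1.05 ± 0.436 in sgZ1 and 0.508 ± 0.0742 in sgC. On this level MondoA mRNA exceeded ChREBP mRNA in every library, and the ratio of MLXIPL to MLXIP per length was 0.0351 to 0.0776 in sgZ3, 0.144 to 0.247 in sgZ1 and 0.109 to 0.122 in sgC. The lengths are unions of all annotated exons, so a gene whose long exons are unused is understated.

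The comparison of sgZ3 with sgZ1 sets no level against sgC, though the sgC libraries enter its shared estimate of spread, and in it 4 of the 5 genes passed. TXNIP, ARRDC4, MLXIP and MLXIPL were lower in sgZ3, where 15.8% of tested genes were called lower. In the edgeR quasi-likelihood fit (p adjusted by Benjamini-Hochberg over all tested genes), the TXNIP difference was -0.87 on the log2 scale (SE 0.10, adjusted p = 7.3e-05), and the mean in sgZ3 was 54.5% of that in sgZ1. ARRDC4 differed by -0.61 (SE 0.13, edgeR adjusted p = 0.0039), a mean of 65.6% of that in sgZ1. The lower level was seen in all 3 sgZ3 libraries against all 3 sgZ1 libraries for each of these 4 genes, as in 18.3% of tested genes.

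MLXIPL had the largest difference of the 5 genes between the guides. It was -2.47 on the log2 scale (SE 0.34, edgeR adjusted p = 0.00025), and the sgZ3 mean was 17.8% of the sgZ1 mean. MLXIP differed by -0.56 (SE 0.15, edgeR adjusted p = 0.013). The MLXIP call was lost without sgZ3 replicate 1 (adjusted p = 0.062) or 2 (0.059) and without sgZ1 replicate 1 (0.055) or 3 (0.067). MLX did not pass, with a difference of 0.13 (95% interval -0.12 to 0.39, adjusted p = 0.46), an interval that leaves room for small differences either way. Without sgZ1 replicate 2 and sgZ3 replicate 3, the libraries with mesenchymal transcripts, the difference was -0.92 for TXNIP, -0.75 for ARRDC4, -0.87 for MLXIP and -2.61 for MLXIPL, and MLX was then called higher in sgZ3 (0.34, SE 0.092, adjusted p = 0.0031).

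**Figure D3:**
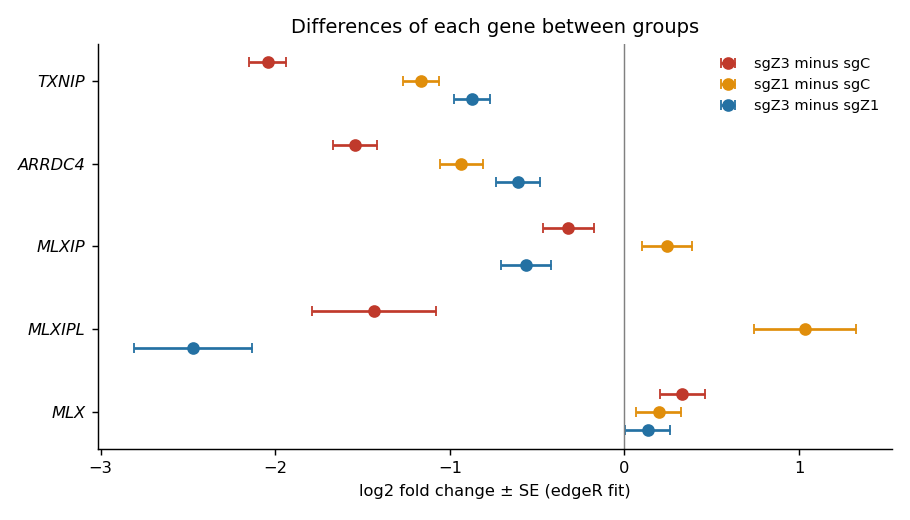
Log2 fold change with its SE, from the edgeR fit over 9 libraries, for sgZ3 minus sgC, sgZ1 minus sgC and sgZ3 minus sgZ1 in each of the 5 genes. All 3 differences are below 0 for TXNIP and ARRDC4, while MLXIP and MLXIPL lie below 0 in sgZ3 and above 0 in sgZ1 relative to sgC.

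The ratio of TXNIP to ARRDC4 within a library does not depend on the scaling of that library. Per length it was 10.0, 11.2 and 9.60 in sgZ3, 11.4, 13.4 and 12.4 in sgZ1 and 14.7, 14.8 and 13.9 in sgC, so the groups did not overlap and TXNIP was further below its sgC level than ARRDC4. The mean log2 ratio was -0.28 in sgZ3 relative to sgZ1 (two-sided exact permutation test, p = 0.10, n = 3 each). That is the smallest p this design allows. Relative to sgC the mean log2 ratio was -0.50 in sgZ3 and -0.22 in sgZ1. The log2 ratio of MLXIP to MLX was -0.69 in sgZ3 relative to sgZ1 (exact permutation p = 0.20), with 1 sgZ3 library inside the sgZ1 range.

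ARRDC4 was among the genes whose profile lay nearest to that of TXNIP. Likeness was the root mean square difference, over the 9 libraries, of log2 CPM centred on each gene's own sgC mean, among 11846 genes with a mean of at least 2 CPM. TCP11L2, at a mean of 1.38 CPM in sgZ3, 2.34 CPM in sgZ1 and 5.15 CPM in sgC, was the nearest (0.22). ARRDC4 came second (0.33). DEPTOR, an inhibitor of mTOR, followed (0.36), then PCK2, the mitochondrial phosphoenolpyruvate carboxykinase (0.36), and FRMD3 (0.37). PCK2 was at 87.9 ± 6.12 CPM in sgZ3, 113 ± 29.7 CPM in sgZ1 and 254 ± 52.3 CPM in sgC (SD, n = 3 each), and its log2 fold change was -1.53 (SE 0.19) for sgZ3 and -1.16 (SE 0.19) for sgZ1. The measure was the distance from a gene chosen for its low level in these libraries, so it describes these libraries only.

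**Figure D4:**
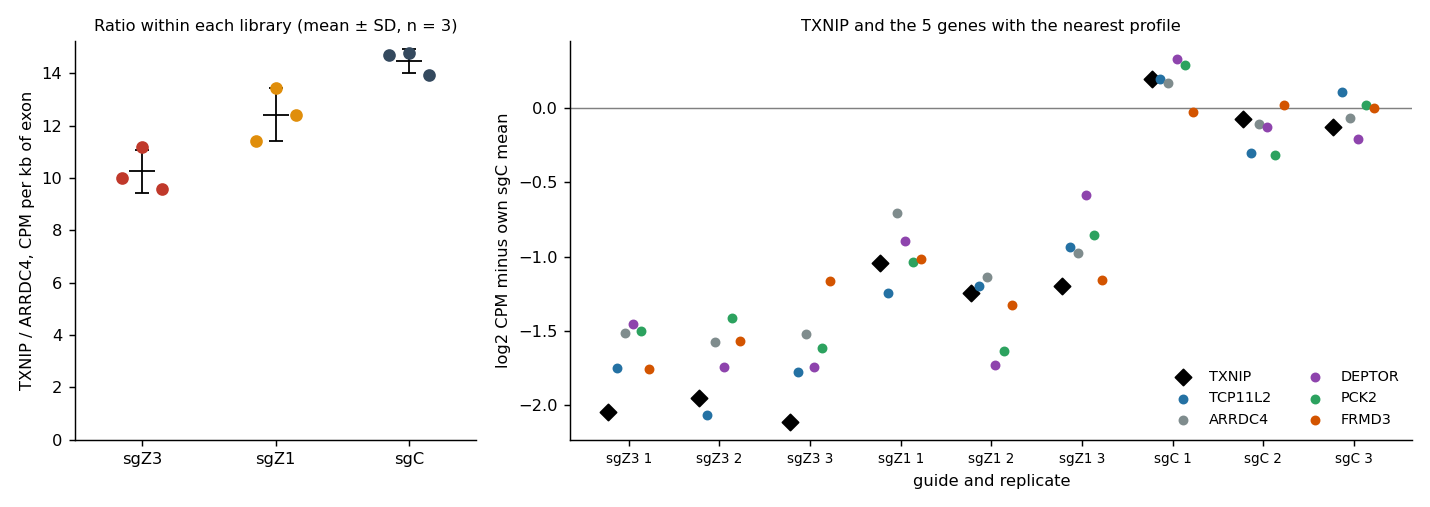
Left, ratio of TXNIP to ARRDC4 (CPM per kb of exon) in each library with mean ± SD (n = 3). Right, log2 CPM of TXNIP and the 5 nearest genes in each library minus the gene's own sgC mean, where TXNIP lies between -2.11 and -1.04 in the sgZ3 and sgZ1 libraries and the other 5 genes are all below their sgC mean there.

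Genes around the module moved in both directions. The lists were chosen by function, with earlier results of these data known, and hold 96 tested genes that are not members. Their counts are therefore descriptions and not an independent test. Over both guides means the average of the sgZ1 and sgZ3 log2 fold changes against sgC. A call on this average need not hold in each guide. For instance, MXI1 was called lower at -0.61 in sgZ3 and 0.06 in sgZ1, and PPARG higher at -0.18 in sgZ3 and 0.65 in sgZ1. On this average, 31 of the 96 were called higher and 20 lower in the edgeR fit at a false discovery rate of 0.05. Of all tested genes, 18.6% were called higher and 14.6% lower. The median log2 fold change of the lists was 0.064, against 0.0078 over all tested genes. The counts were 9 higher and 5 lower without sgC replicate 1, 16 and 13 without sgC replicate 2, and 11 and 9 without sgC replicate 3. They were 19 and 13 without sgZ3 replicate 1, 18 and 12 without sgZ3 replicate 2, and 24 and 13 without sgZ1 replicate 3. With library totals in place of scaling factors they were 12 and 26. In sgZ3 against sgZ1, 11 were higher and 16 lower, beside 12.8% and 15.8% of all tested genes.

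Other reported targets of MondoA and ChREBP were mostly not lower than in sgC. Of 19 tested, 8 rose and 2 fell over both guides, with a median log2 fold change of 0.19. Of all tested genes, 18.6% rose and 14.6% fell. FADS1, a fatty acid desaturase, was at 13.0 ± 3.50 CPM in sgZ3, 39.8 ± 0.589 CPM in sgZ1 and 12.4 ± 0.519 CPM in sgC (SD, n = 3 each). Its log2 fold change was 0.07 for sgZ3 and 1.68 for sgZ1, and it differed between the guides by -1.61 (SE 0.16, edgeR adjusted p = 1.7e-05). ACLY, the ATP citrate lyase, rose by 0.36 over both guides (SE 0.071, edgeR adjusted p = 0.0031), and RGS16, a regulator of G-protein signalling, rose by 0.60 (SE 0.13, edgeR adjusted p = 0.0047). KLF10, a Krüppel-like transcription factor, was at 83.7 ± 2.29 CPM in sgZ3, 122 ± 5.90 CPM in sgZ1 and 124 ± 6.22 CPM in sgC. It differed between the guides by -0.54 (SE 0.085, edgeR adjusted p = 0.00063).

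In sgZ3 against sgZ1, 5 of the 19 targets fell and 1 rose, beside 15.8% and 12.8% of all tested genes. KLF10, FADS1, FASN, ACACB and FGF21 were lower in sgZ3, and KHK, the ketohexokinase, was higher (0.67, edgeR adjusted p = 0.0022). FASN, the fatty acid synthase, differed by -0.56 (edgeR adjusted p = 0.00099). The call of ACACB, an acetyl-CoA carboxylase, was lost without sgZ3 replicate 1 or 2, sgZ1 replicate 1 or 3, or sgC replicate 1 (adjusted p = 0.054 to 0.14). That of FGF21, a metabolic hormone, was lost without sgZ3 replicate 2 (0.096) or sgZ1 replicate 1 (0.074). FGF21 was a low transcript, at a mean of 0.676 CPM in sgZ3, 1.27 CPM in sgZ1 and 1.17 CPM in sgC. Over both guides the 2 targets that fell were KLF10, lost without sgC replicate 1 (0.071), and ACACB, lost without sgZ3 replicate 1 or sgC replicate 1 or 3 (0.051 to 0.11).

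The other arrestins did not share the order of TXNIP and ARRDC4. Of 5 tested, 3 rose and 1 fell over both guides, beside 18.6% and 14.6% of all tested genes. ARRB2, a beta-arrestin, was at 42.5 ± 2.13 CPM in sgZ3, 60.3 ± 2.62 CPM in sgZ1 and 31.6 ± 2.48 CPM in sgC (SD, n = 3 each), and it rose by 0.68 (SE 0.084, edgeR adjusted p = 0.00026). ARRDC3, an alpha-arrestin, was at 8.48 ± 0.835 CPM in sgZ3, 15.8 ± 2.70 CPM in sgZ1 and 15.7 ± 1.30 CPM in sgC. It differed between the guides by -0.89 (SE 0.15, edgeR adjusted p = 0.00084), and ARRB2 by -0.50 (SE 0.094, edgeR adjusted p = 0.0020). Over both guides ARRDC3 fell, which did not hold without sgC replicate 1 (adjusted p = 0.092) or 2 (0.062), and ARRDC2 rose, which did not hold without sgC replicate 3 (0.081). ARRB1 rose, which did not hold without sgZ3 replicate 1 or 2 or any 1 sgC replicate (0.055 to 0.14).

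Of 10 genes of the wider MLX and MAX network, 2 rose and 3 fell over both guides, with a median of -0.15. The shares over all tested genes were 18.6% and 14.6%. MYC was at 111 ± 11.9 CPM in sgZ3, 206 ± 33.1 CPM in sgZ1 and 105 ± 4.93 CPM in sgC (SD, n = 3 each). Its log2 fold change was 0.08 for sgZ3 and 0.97 for sgZ1, and it differed between the guides by -0.88 (SE 0.12, edgeR adjusted p = 0.00027). MXI1, a MAX-binding repressor, was lower in sgZ3 than in sgZ1 (-0.67, SE 0.11, edgeR adjusted p = 0.00088), as was MNT, which pairs with MAX or MLX (-1.11, edgeR adjusted p = 0.0012). The remaining calls over both guides were lost without single libraries. MAX, the partner of MYC, rose, a call lost without sgZ3 replicate 1 or 2, sgZ1 replicate 2 or 3 or any 1 sgC replicate (adjusted p = 0.062 to 0.14). MXD1, another MAX-binding repressor, fell, lost without sgZ3 replicate 1 or 2 or any 1 sgC replicate (0.062 to 0.16). MYCN fell, lost without sgZ3 replicate 2, sgZ1 replicate 3 or any 1 sgC replicate (0.070 to 0.15), and MXI1 fell, lost without sgZ3 replicate 1 or 2, sgZ1 replicate 3 or any 1 sgC replicate (0.062 to 0.16).

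Genes of glucose transporters and related carriers, some of whose proteins alpha-arrestins remove from the cell surface, moved both ways. Of 10 tested, 4 rose and 3 fell over both guides, beside 18.6% and 14.6% of all tested genes. SLC2A4, which encodes the insulin-responsive GLUT4, was a low transcript at 1.53 ± 0.0544 CPM in sgZ3, 1.64 ± 0.242 CPM in sgZ1 and 0.536 ± 0.0895 CPM in sgC (SD, n = 3 each, edgeR adjusted p = 0.00053). SLC2A12 fell by 0.75 (SE 0.097, edgeR adjusted p = 0.00035) and SLC2A10 fell by 0.64 (SE 0.095, edgeR adjusted p = 0.00070). SLC2A13, a myo-inositol transporter, was at 0.771 ± 0.0353 CPM in sgZ3, 3.29 ± 1.11 CPM in sgZ1 and 0.552 ± 0.171 CPM in sgC. It rose over both guides and differed between them by -2.08 (SE 0.29, edgeR adjusted p = 0.00031). Higher in sgZ3 than in sgZ1 were SLC2A3 (0.74, edgeR adjusted p = 0.00019), SLC2A8 (0.67, edgeR adjusted p = 0.0010) and SLC2A1, which encodes GLUT1 (0.38, edgeR adjusted p = 0.0039). SLC5A1 fell over both guides, a call that did not hold without sgC replicate 1 (adjusted p = 0.061). The calls of SLC2A1 (0.058 to 0.20) and SLC2A6 (0.069 to 0.17) as higher were lost without sgZ3 replicate 2, sgZ1 replicate 2 or 3 or any 1 sgC replicate, and that of SLC2A1 also without sgZ3 replicate 1.

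Of 12 genes for enzymes and transporters at or next to glucose 6-phosphate, the signal read by MondoA, 4 rose and 1 fell over both guides. Among the 12, PGD and UGP2 do not act on glucose 6-phosphate itself. The shares over all tested genes were 18.6% and 14.6%. H6PD, the hexose-6-phosphate dehydrogenase of the endoplasmic reticulum, fell by 0.54 (SE 0.13, edgeR adjusted p = 0.0079). G6PC3, a glucose-6-phosphatase, was at 107 ± 7.02 CPM in sgZ3, 74.0 ± 7.49 CPM in sgZ1 and 74.3 ± 4.46 CPM in sgC (SD, n = 3 each). G6PC3 (0.53, edgeR adjusted p = 0.0022) and ADPGK, an ADP-dependent glucokinase (0.48, edgeR adjusted p = 0.0031), were higher in sgZ3 than in sgZ1. UGP2, which makes UDP-glucose, was also called, a call lost without any 1 library other than sgZ1 replicate 2 (adjusted p = 0.052 to 0.14). Over both guides the calls of PGD, G6PC3 and SLC37A4 as higher were lost without sgZ3 replicate 1 or 2 or any 1 sgC replicate (0.051 to 0.19), and that of G6PC3 also without sgZ1 replicate 3 (0.057). That of ADPGK was lost without sgZ3 replicate 1 or sgC replicate 1 or 3 (0.057 to 0.13).

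**Figure D5:**
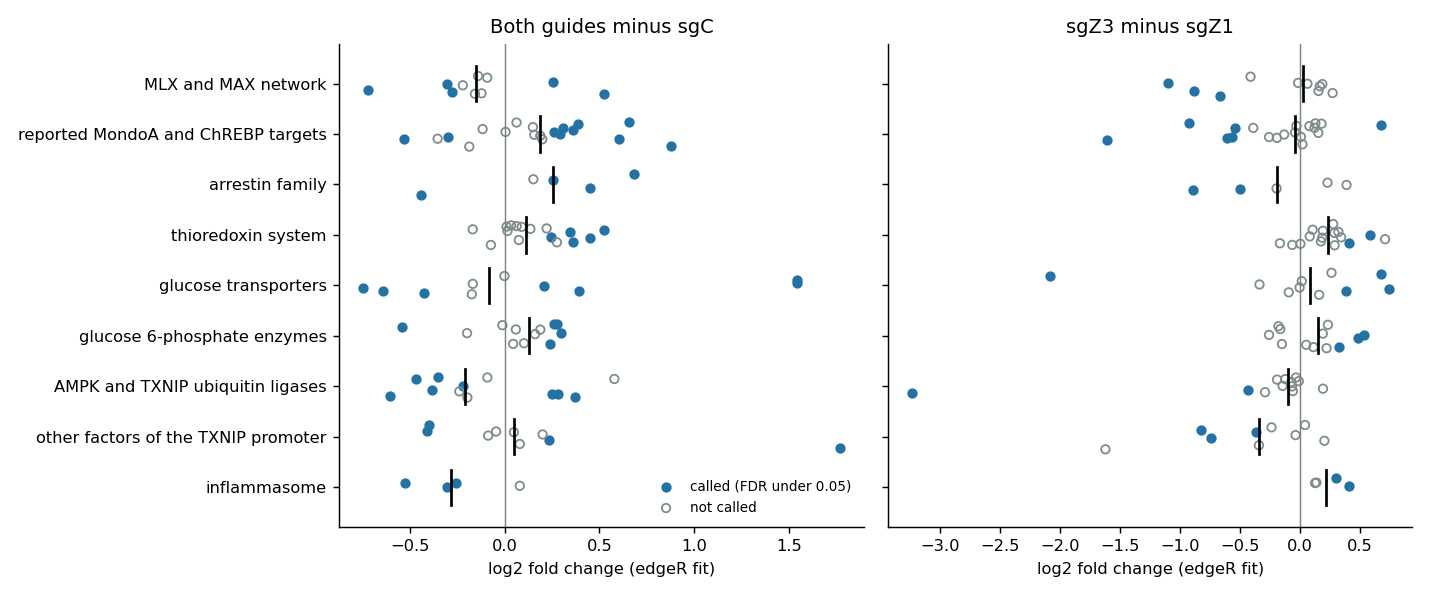
Log2 fold change of each tested non-member gene in 9 functional lists, for both guides minus sgC (left) and sgZ3 minus sgZ1 (right), with filled points for genes called at a false discovery rate of 0.05 and black bars for list medians. Called genes lie on both sides of 0 in 7 of the 9 lists on the left and in 2 of the 9 on the right, with medians over both guides from -0.28 for the inflammasome to 0.26 for the arrestin family.

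In the thioredoxin system, whose central protein TXNIP inhibits, 5 of 16 genes rose over both guides and none fell. That is 31.25% called higher, beside 18.6% of all tested genes called higher and 14.6% called lower. Calls in either direction made up 33.2% of all tested genes. TXN, the gene of thioredoxin itself, was not called over both guides (0.28, edgeR adjusted p = 0.080). Against sgC it was called higher in sgZ3 (0.43, edgeR adjusted p = 0.022) and not called in sgZ1 (0.12, edgeR adjusted p = 0.55). NXN, a thioredoxin-like protein, was at 152 ± 6.16 CPM in sgZ3, 152 ± 3.98 CPM in sgZ1 and 111 ± 3.53 CPM in sgC (SD, n = 3 each), a rise of 0.45 (SE 0.071, edgeR adjusted p = 0.00094). The peroxiredoxin genes PRDX4 and PRDX1 rose by 0.53 (edgeR adjusted p = 0.0084) and 0.36 (edgeR adjusted p = 0.0073), and both calls were lost without sgC replicate 1 (adjusted p = 0.054 and 0.058) or 3 (0.056 and 0.051). The calls of PRDX6 (0.063 to 0.15) and TXN2 (0.055 to 0.17) were lost without sgZ3 replicate 1 or 2, sgZ1 replicate 2 or any 1 sgC replicate, that of PRDX6 also without sgZ1 replicate 1 and that of TXN2 without sgZ1 replicate 3. In sgZ3 against sgZ1, 2 rose, which is 12.5% of the list beside 12.8% of all tested genes. PRDX4 was higher by 0.59 (edgeR adjusted p = 0.0091), lost without sgZ1 replicate 3 (0.052), and GLRX, a glutaredoxin, was higher by 0.41 (edgeR adjusted p = 0.032), lost without sgZ3 replicate 1 or 2, sgZ1 replicate 1 or 3 or sgC replicate 1 (0.055 to 0.15).

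Of 12 genes for AMPK, which marks TXNIP protein for degradation, its upstream kinases and ubiquitin ligases of the TXNIP or related family, 3 rose and 5 fell over both guides. The shares over all tested genes were 18.6% and 14.6%. NEDD4, a ubiquitin ligase, fell by 0.60 (SE 0.11, edgeR adjusted p = 0.0021) and PRKAA1, an AMPK catalytic subunit, fell by 0.47 (SE 0.10, edgeR adjusted p = 0.0051). PRKAA2, the other catalytic subunit, was at 0.469 ± 0.231 CPM in sgZ3, 4.63 ± 0.947 CPM in sgZ1 and 1.01 ± 0.206 CPM in sgC (SD, n = 3 each), and the guides differed by -3.24 (SE 0.31, edgeR adjusted p = 1.4e-05). ITCH, the ligase of TXNIP, was lower in sgZ3 than in sgZ1 (-0.44, edgeR adjusted p = 0.023), lost without sgZ3 replicate 1 or 2 or sgZ1 replicate 1 or 3 (0.059 to 0.12). Over both guides PRKAB2 fell, lost without sgC replicate 1 (0.10) or 3 (0.052), and CAMKK2 rose, lost without sgC replicate 1 (0.11) or 2 (0.082). ITCH fell, lost without sgZ3 replicate 1 or 2, sgZ1 replicate 3 or sgC replicate 1 or 3 (0.054 to 0.13), and WWP1 fell, lost without those or sgC replicate 2 (0.065 to 0.16). STK11 and PRKAG2 rose, lost without sgZ3 replicate 1 or 2, sgZ1 replicate 2 or any 1 sgC replicate (0.056 to 0.17), STK11 also without sgZ1 replicate 3 (0.051) and PRKAG2 without sgZ3 replicate 3 (0.051) or sgZ1 replicate 1 (0.055).

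Of 9 other factors known to act on the TXNIP promoter, 2 rose and 2 fell over both guides, and 3 were lower in sgZ3 than in sgZ1. The shares over all tested genes were 18.6%, 14.6% and 15.8%. FOXO3 was at 30.3 ± 7.37 CPM in sgZ3, 50.9 ± 9.21 CPM in sgZ1 and 52.1 ± 1.52 CPM in sgC (SD, n = 3 each), and the guides differed by -0.74 (SE 0.17, edgeR adjusted p = 0.0063). PPARG was at 37.4 ± 2.58 CPM in sgZ3, 66.3 ± 2.54 CPM in sgZ1 and 42.3 ± 2.28 CPM in sgC, and the guides differed by -0.83 (SE 0.093, edgeR adjusted p = 5.2e-05). HSF1 was also lower in sgZ3, lost without sgZ3 replicate 1 or 2 or sgZ1 replicate 1 or 3 (adjusted p = 0.057 to 0.081). NFYA, NFYB and NFYC, which together bind CCAAT boxes, did not pass in any of the comparisons.

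Each call of this list over both guides was lost without some 1 library. FOXO1 fell, lost without sgZ3 replicate 1 or 2, sgZ1 replicate 3 or sgC replicate 1 or 3 (edgeR adjusted p = 0.053 to 0.13). FOXO3 fell, lost without sgZ3 replicate 1 or 2, sgZ1 replicate 2 or 3 or any 1 sgC replicate (0.051 to 0.15). PPARG rose, lost without sgZ3 replicate 1 or 2, sgZ1 replicate 1 or 2 or any 1 sgC replicate (0.052 to 0.19). NR3C1, the glucocorticoid receptor, was at 0.473, 0.488 and 3.40 CPM in sgZ3, 4.23, 5.89 and 3.84 CPM in sgZ1 and 0.778, 1.12 and 0.469 CPM in sgC. Its highest value with each ZNF692 guide was in the library with mesenchymal transcripts, and its call as higher was lost without any 1 sgZ1 or sgC replicate (0.058 to 0.22).

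Of 8 inflammasome genes 4 were tested, and NLRP3, the sensor to which TXNIP binds, was too low to be among them. Over both guides 3 of the 4 fell and none rose, beside 14.6% and 18.6% of all tested genes. GSDMD was not called (0.08, edgeR adjusted p = 0.57). NEK7, a kinase that activates NLRP3, fell over both guides by 0.52 (edgeR adjusted p = 0.0073), lost without sgC replicate 1 (0.051). IL18, a cytokine, fell, lost without sgC replicate 1 (0.11) or 3 (0.072), and CASP4, an inflammatory caspase, fell, lost without sgZ3 replicate 2 or 3, sgZ1 replicate 1 or 3 or any 1 sgC replicate (0.054 to 0.18). In sgZ3 against sgZ1, 2 of the 4 were higher and none lower, beside 12.8% and 15.8% of all tested genes. CASP4 was higher in sgZ3 than in sgZ1 (0.40, edgeR adjusted p = 0.015), lost without sgZ3 replicate 1 (0.079) or 2 (0.051) or sgZ1 replicate 3 (0.053). IL18 was higher in sgZ3 (0.30, edgeR adjusted p = 0.045), lost without any 1 library other than sgZ3 replicate 3 or sgZ1 replicate 2 (0.065 to 0.17).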

How the data were processed

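Counts per gene of 9 poly(A) libraries were used as deposited by the authors. A table of ribosomal RNA fragments was not used here. Per the submitters' processing notes, the tools were HTSeq, DESeq2, SAMtools 1.9 and STAR 2.5.2b, and the builds GRCh38 and hg38, listed without roles. Strand setting and annotation release: not given in the sources used here. Gene lengths and positions came from GENCODE 29 (GRCh38).

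The members and lists were chosen with earlier results of these data known. Genes passing edgeR's expression filter were fitted in R 4.3.3 with edgeR 4.0.16 (limma 3.58.1), TMM factors and the quasi-likelihood test over 3 groups of 3 libraries, with calls at a Benjamini-Hochberg false discovery rate of 0.05. CPM are on TMM-scaled totals. The steps were checked on simulated counts. Within each list, named genes were up to 3 called genes with the smallest adjusted p over both guides and up to 2 in sgZ3 against sgZ1, plus genes behind counts of 5 or fewer. Alternatives were other scalings, DESeq2 1.42.0, other filters, compared groups only, a replicate block, a false discovery rate of 0.01 and libraries left out. No 2 libraries were alike within sampling noise. With library totals of 16044224 to 24535642 counts, depth limited MLXIPL alone among the members, at 11 to 145 counts a library.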

Additional observations from a re-analysis of the deposited data

Results flagged for a closer look

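These results differed between the ZNF692 guides by the test of sgZ3 against sgZ1 itself (log2 difference, edgeR, p adjusted by Benjamini-Hochberg over all tested genes). Several of these calls were lost with single libraries left out, as given where each gene is described. Among them were those of MLXIP, UGP2, IL18, ATP5ME, GLRX, ACACB, ITCH and HSF1. Of the 5 members, TXNIP differed by -0.87, ARRDC4 by -0.61, MLXIP by -0.56 and MLXIPL by -2.47. Of these, MLXIPL lay on opposite sides of every sgC library in the groups.

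Among list genes lower in sgZ3, the difference was -0.88 for MYC, -0.67 for MXI1 and -1.11 for MNT in the MLX and MAX network. It was -1.61 for FADS1, -0.54 for KLF10, -0.56 for FASN, -0.61 for ACACB and -0.92 for FGF21 among reported targets. It was -0.50 for ARRB2 and -0.89 for ARRDC3 among arrestins. For SLC2A13 it was -2.08, for PRKAA2 -3.24 and for ITCH -0.44. Among promoter factors it was -0.83 for PPARG, -0.74 for FOXO3 and -0.37 for HSF1.

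Among list genes higher in sgZ3, the difference was 0.59 for PRDX4 and 0.41 for GLRX in the thioredoxin system. It was 0.74 for SLC2A3, 0.67 for SLC2A8 and 0.38 for SLC2A1 among transporters. It was 0.67 for KHK, 0.48 for ADPGK, 0.53 for G6PC3 and 0.32 for UGP2 among sugar enzymes, and 0.30 for IL18 and 0.40 for CASP4 in the inflammasome.

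Among other genes with a paired E-box before their start, ATP5ME, a subunit of the ATP synthase, differed by 0.59 and SIL1 by 0.47.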

How the results depend on the processing

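No call of a member or named gene that was refitted changed its direction under the alternatives run, and called list genes that the text only counts were not followed singly. TXNIP, ARRDC4 and MLXIPL kept their call in sgZ3 against sgZ1 throughout. MLXIP (-0.56) missed a false discovery rate of 0.01 and ranged from -0.72 to -0.46 with 1 library left out. MLX passed at 0.34 without sgZ1 replicate 2 and sgZ3 replicate 3. With library totals the log2 fold change for sgZ3 against sgC was -2.20 for TXNIP and -1.70 for ARRDC4, and the median of all genes was -0.17, against -0.018 with TMM factors. With totals, the list genes called in sgZ3 against sgC were 11 higher and 28 lower, and over both guides 12 were higher. With upper-quartile factors 19 were higher over both guides. The share of higher calls among all genes over both guides was 56.0% with TMM, 45.9% with upper-quartile factors and 36.6% with totals, and in sgZ3 against sgZ1 44.7%, 37.7% and 27.0%. At a false discovery rate of 0.01, 2278 genes were called over both guides (4885 at 0.05), 2005 in sgZ1 (3807), 2609 in sgZ3 (5355) and 2254 between the guides (4209). List genes were then 10 higher and 8 lower over both guides, 12 and 6 in sgZ1, 11 and 11 in sgZ3, and 7 higher between the guides. With a mean of at least 10 CPM, 2527 genes were called in sgZ1, 12 of them list genes that were higher, and 2676 between the guides, and MLXIPL gave no value. Without sgZ1 replicate 2 and sgZ3 replicate 3, the libraries with mesenchymal transcripts, 7409 genes were called over both guides, 5894 in sgZ1, 8246 in sgZ3 and 7932 between the guides, with 27 list genes higher and 30 lower between the guides. With 1 library left out at a time, genes called ranged from 2201 to 6337 over both guides, 2129 to 4855 in sgZ1, 3080 to 6796 in sgZ3 and 2501 to 6153 between the guides. List genes ranged from 9 to 31 higher and 5 to 21 lower over both guides, 12 to 21 and 7 to 17 in sgZ1, 12 to 29 and 11 to 23 in sgZ3, and 7 to 23 and 12 to 24 between the guides. The cause of these shifts was not tested. With the replicate number as a block, the difference between the guides was -0.87 for TXNIP and -0.56 for MLXIP, and 5005 genes were called. Without the block 4209 were called. Of 9 same-numbered pairs, 3 correlated above 0.1 (-0.12 to 0.25), and different-numbered pairs ranged from -0.26 to 0.20. Whether the numbers pair the samples cannot be told from these values. The fit of compared groups only does not apply to both guides together.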

Other observations

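The paired E-box of the TXNIP promoter, chosen after its sequence was read, was found in 23 genes of the RefSeq promoter table, and 14 genes other than TXNIP were tested. Over both guides against sgC, 3 of them rose (ATP5ME, KCTD5 and RAN) and 4 fell (GFPT1, HPF1, P4HA1 and STX12) in the edgeR quasi-likelihood fit, where 18.6% of all tested genes were called higher and 14.6% lower. GFPT1, the first enzyme of the hexosamine pathway, was at 246 ± 18.1 CPM in sgZ3, 209 ± 15.4 CPM in sgZ1 and 311 ± 21.7 CPM in sgC (SD, n = 3 each), a log2 fold change over both guides of -0.46 (edgeR adjusted p = 0.0017). The calls of GFPT1, KCTD5 and P4HA1 held with any 1 library left out. Those of RAN (adjusted p = 0.060 and 0.063) were lost without sgC replicate 1 or 3, and those of STX12 (0.054 to 0.11) without any 1 sgC replicate. That of ATP5ME (0.051 to 0.11) was lost without sgZ1 replicate 3 or sgC replicate 1 or 3, and that of HPF1 (0.056 to 0.16) without sgZ3 replicate 1 or 2, sgZ1 replicate 1 or any 1 sgC replicate. In sgZ3 against sgZ1, ATP5ME and SIL1 were higher, as were 12.8% of all tested genes, and the call of ATP5ME was lost without any 1 library other than sgZ3 replicate 3 or sgZ1 replicate 2 (0.053 to 0.17). These genes were named after their values were seen. PKLR, the liver pyruvate kinase and a known ChREBP target, also held the motif and was too low to be tested.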
